A study of Mus musculus with 3 samples.

Results

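The miRNAs described here are the 3p arms of 2 related mouse clusters, namely mmu-miR-23a-3p, mmu-miR-27a-3p, mmu-miR-24-3p, mmu-miR-23b-3p and mmu-miR-27b-3p (mmu- is left out hereafter). They were taken by name, 5 of the 1079 mouse miRNAs on the array, together with the 6 features for the 5p arms of the same hairpins. All samples belonged to 1 group. MVs, small vesicles that osteoblasts bud into the ECM, were isolated from the matrix laid down by MC3T3-E1 cells, an established mouse calvarial osteoblastic line, once osteoid-like nodules had formed in osteogenic medium. RNA was extracted 3 times independently, here called isolations 1, 2 and 3, and the sources used here do not say whether each came from a separate culture. The labels state that beta-glycerophosphate was present, whereas the methods state that MVs came from cultures without it. Cultures were digested with 500 units/mL collagenase, MVs were collected by ultracentrifugation, and 100 ng of total RNA per isolation was labeled with Cy3 and hybridized to 1 array. No array of the parent cells was analysed here, so the values describe MV RNA without a comparison to cells, and more of a miRNA in each vesicle cannot be told apart from more vesicles that carry it.

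The miR-23, miR-27 and miR-24 hairpins lie together on 1 strand in each of 2 paralogous clusters. A cluster can be transcribed as 1 primary RNA, from which each hairpin is cut and matured separately, so arms of 1 cluster need not reach equal levels. In osteoblasts the miR-23a cluster is known for a regulatory circuit with RUNX2, the transcription factor that commits cells to the osteoblast lineage. RUNX2 represses the cluster, and miR-23a acts on Runx2 mRNA. The miR-27 arms are also known to act on Apc, an inhibitor of Wnt signaling, and on Pparg, the regulator of adipocyte differentiation, and miR-24 is known to act on the Wnt effector TCF1.

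The sequences show which features of the arrays can and cannot be told apart. In RefSeq (GRCm38.p6) the miR-23a cluster holds Mir23a (chr8:84208518-84208592), Mir27a (chr8:84208672-84208758) and Mir24-2 (chr8:84208815-84208921), all on the plus strand within 404 bases, and no annotated gene spanned the whole cluster. The miR-23b cluster holds Mir23b (chr13:63300484-63300557), Mir27b (chr13:63300712-63300784) and Mir24-1 (chr13:63301208-63301275), also on the plus strand, within 792 bases inside the gene Aopep. Mature sequences were matched by name for 4 of the 5 members (not for miR-23b-3p) and for 6 of the 6 5p arms. In these lines capitals mark the seed, bases 2 to 8 from the 5′ end.
miR-23a-3p: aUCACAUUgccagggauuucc
miR-27a-3p: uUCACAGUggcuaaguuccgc
miR-27b-3p: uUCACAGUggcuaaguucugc
miR-24-3p: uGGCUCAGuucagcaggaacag

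The miR-27 arms shared their seed and 20 of 21 bases. Counted from the 5′ end, with the base of miR-27a-3p first, the single difference was C19U, which lies near the 3′ end and outside the seed. Features for such near-identical miRNAs can share signal, so the level of each miR-27 arm is uncertain by an unknown part of the other, and the same holds for the paralogs miR-23a-3p and miR-23b-3p. Among the 867 array miRNAs with a sequence, which do not include miR-23b-3p, the miR-27 seed occurred in no further miRNA, and the seeds of miR-23a-3p and miR-24-3p in no other.

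For miR-24-3p the array cannot separate the clusters at all, because both hairpins hold the identical arm (capitals).
Mir24-2: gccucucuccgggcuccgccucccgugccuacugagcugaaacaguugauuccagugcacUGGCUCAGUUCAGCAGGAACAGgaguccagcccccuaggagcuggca
Mir24-1: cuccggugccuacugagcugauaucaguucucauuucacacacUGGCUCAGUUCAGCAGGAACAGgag
The hairpins differ in their 5p arms, which have a feature each and are shown with the seed in capitals.
miR-24-2-5p: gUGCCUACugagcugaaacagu
miR-24-1-5p: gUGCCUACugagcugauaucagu

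The 3p arms of both clusters were found in MVs of isolations 2 and 3 and in none of isolation 1. All 5 were called detected in isolation 2, where 16.6% of all mouse miRNAs were detected, and all 5 in isolation 3, where 15.2% were. In isolation 1, 0 of 5 were detected, against 7.97% of all mouse miRNAs. Accordingly 0 of 5 were detected in all isolations, beside 7.78% of all mouse miRNAs. The pattern of detection in isolations 2 and 3 without isolation 1 was shared with 80 mouse miRNAs (7.41% of those on the array), the members included. Of the 6 5p arms, 0 were detected in any isolation, beside 16.7% of all mouse miRNAs. At these shares lists this short can hold none, so by count alone the values of 0 do not set these arms apart. Undetected miRNAs carry a placeholder of 0.1 in place of a measured signal. In isolation 1 no miRNA was called detected with a signal under 3.02 times its error, and 83 of the 86 detected had errors of at least 2.37, the lowest of these being miR-206-3p at 7.71, which was taken as the limit for the members there. The other 3 had errors of at most 1.40 and were detected down to 4.87.

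The signal is the deposited total gene signal, a linear intensity, and its error is that given by the scanner software for the same feature. The arrays were not scaled to each other unless stated. miR-24-3p had the highest signal of the members, 121.2 ± 9.49 (signal ± its error) in isolation 2 and 99.9 ± 8.04 in isolation 3. The signal of miR-23a-3p, an arm known to act on Runx2, was 91.9 ± 8.34 in isolation 2 and 66.1 ± 6.41 in isolation 3. For miR-27a-3p it was 86.0 ± 7.94 in isolation 2 and 58.7 ± 6.03 in isolation 3. All 3 arms that the miR-23a cluster encodes thus stood in the upper part of the detected miRNAs in both isolations.

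The arms that belong to the miR-23b cluster alone were dimmer. The signal of miR-23b-3p was 48.7 ± 5.32 in isolation 2 and 27.3 ± 3.67 in isolation 3. For miR-27b-3p it was 13.7 ± 2.87 and 11.9 ± 2.71, the lowest of the members and 3.11 and 2.69 times the lowest detected signal of those arrays. Even there the signal was 4.76 and 4.38 times its error. As log2 signals over isolations 2 and 3, the means were 6.78 ± 0.20 (SD, n = 2) for miR-24-3p, 6.28 ± 0.34 for miR-23a-3p, 6.15 ± 0.39 for miR-27a-3p, 5.19 ± 0.59 for miR-23b-3p and 3.67 ± 0.15 for miR-27b-3p. With 2 isolations behind each mean, the number of arrays limits the precision.

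**Figure D1:**
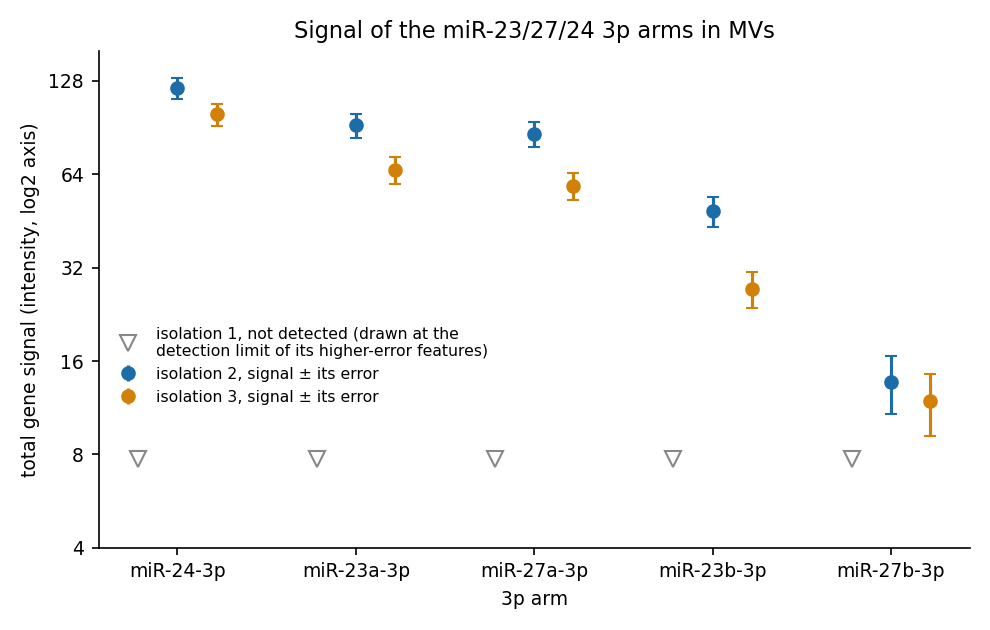
Total gene signal (intensity, log2 axis) of the 5 3p arms in each isolation of MVs, where filled points are detected signals, bars are the error of the signal and open triangles mark isolation 1, without detection, at the limit of 7.71. The order from miR-24-3p down to miR-27b-3p was the same in isolations 2 and 3, and each arm was lower in isolation 3 before any scaling, a direction that turned for their median after a shift to the 90th percentile.

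Within each array, the place of a miRNA among the detected mouse miRNAs does not depend on the scaling of the array. By signal, miR-24-3p was at place 37 of 179 in isolation 2 and 35 of 164 in isolation 3. miR-23a-3p was at places 47 and 51, miR-27a-3p at 50 and 60, miR-23b-3p at 75 and 89, and miR-27b-3p at 148 and 126. Of the other detected miRNAs, a mean of 79.5% ± 0.45 (SD, n = 2) lay below miR-24-3p, 71.7% ± 3.42 below miR-23a-3p, 68.1% ± 6.13 below miR-27a-3p, 52.2% ± 8.78 below miR-23b-3p and 20.4% ± 4.17 below miR-27b-3p. The members therefore spread over much of the order of detected miRNAs. By the percent below, miR-24-3p varied least and miR-23b-3p most between isolations, whereas by place miR-27b-3p moved furthest.

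Each member took a small part of the summed signal of the detected miRNAs. The share of miR-24-3p was 0.285% in isolation 2 and 0.284% in isolation 3. The share of miR-27b-3p was 0.0322% and 0.0337%, so both the brightest and the dimmest member kept nearly the same share of this sum. The sum leans on its brightest miRNA, miR-5109, with 12972.6 of 42478.4 in isolation 2 and 14058.5 of 35179.4 in isolation 3. Unlike the members, miR-5109 was higher in isolation 3, so the shares hold for this sum only. The share of miR-23b-3p was 0.115% and 0.0777%, the widest difference of the 5. The neighbors of miR-24-3p in the order included miR-214-3p, a miRNA of mesenchymal cells, directly above it in isolation 3 (100.8 against 99.9). In isolation 2 they were miR-1927 above (126.0) and miR-669e-5p below (119.2). miR-23a-3p lay directly below miR-199a-5p, of the same mesenchymal locus as miR-214, in isolation 3 (66.1 against 67.8), and directly above miR-140-3p, known from cartilage, in isolation 2 (91.9 against 91.2). On its other side were miR-669e-5p in isolation 3 (63.4) and miR-466h-5p in isolation 2 (94.2), so the neighbors were mixed.

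**Figure D2:**
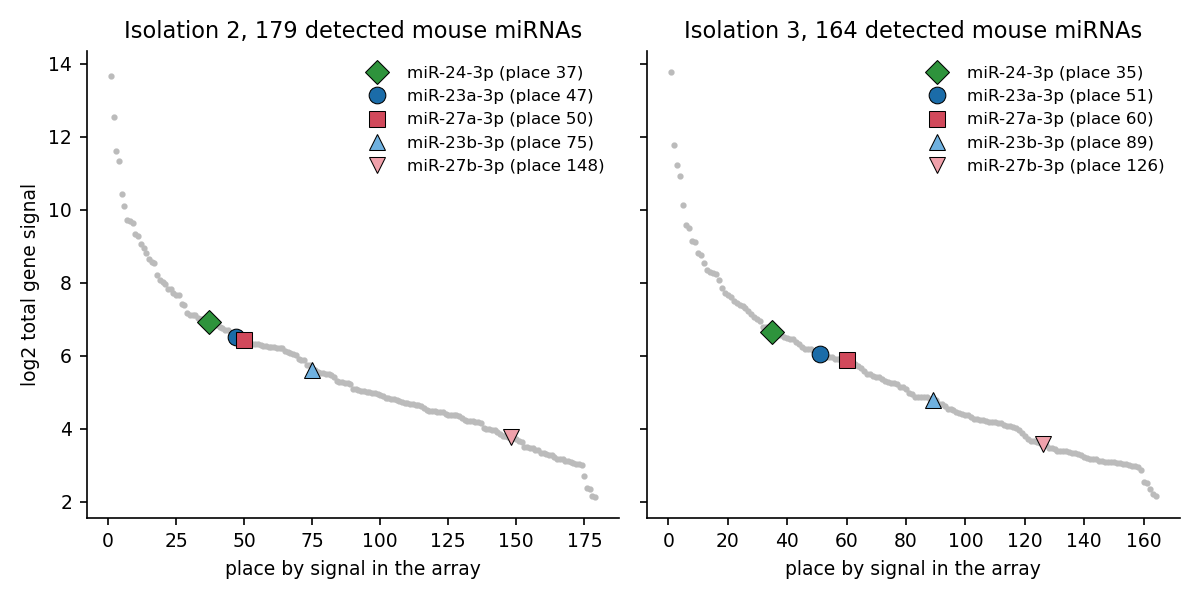
Log2 total gene signal of every detected mouse miRNA against its place by signal in isolation 2 (left, 179 miRNAs) and isolation 3 (right, 164 miRNAs), gray points, with the 5 3p arms marked. miR-24-3p, miR-23a-3p and miR-27a-3p lie between places 35 and 60, and miR-27b-3p lies at places 148 and 126.

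Between the clusters, the miR-23a member gave the higher signal in both pairs of paralogs. The signal of miR-23a-3p was 1.89 times that of miR-23b-3p in isolation 2 and 2.42 times in isolation 3, a mean log2 difference of 1.10 ± 0.25 (SD, n = 2). The signal of miR-27a-3p was 6.29 and 4.95 times that of miR-27b-3p, a mean log2 difference of 2.48 ± 0.24 (SD, n = 2). In each isolation these gaps were 4.37 and 5.26 times the combined error of the 2 signals for miR-23, and 8.56 and 7.09 times for miR-27. An exact sign-flip permutation test over isolations gave a two-sided p = 0.50 for each pair, the smallest that 2 isolations can give, so the test could not reach a threshold. The features carry different probes, which may respond differently, so these are orders of signals and not of RNA amounts.

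Within the miR-23a cluster, miR-23a-3p and miR-27a-3p gave similar signals and miR-24-3p a higher one. miR-23a-3p exceeded miR-27a-3p by 5.87 in isolation 2 and 7.42 in isolation 3, which was 0.51 and 0.84 times the combined error, so these neighbors in the order did not differ beyond the error of their signals. miR-24-3p, to which both clusters can contribute, exceeded miR-23a-3p by 2.32 and 3.28 combined errors, with signal ratios of 1.32 and 1.51, and miR-27a-3p by 2.84 and 4.10, with ratios of 1.41 and 1.70. The arms of the miR-23b cluster were further apart. The signal of miR-23b-3p was 3.56 times that of miR-27b-3p in isolation 2 and 2.31 times in isolation 3, a mean log2 difference of 1.52 ± 0.44 (SD, n = 2). The widest gap was between miR-24-3p and miR-27b-3p, with ratios of 8.86 and 8.43. Its log2 difference had an SD of 0.051 (n = 2), near the 0.054 of miR-23a-3p minus miR-27a-3p. Across the clusters, miR-27a-3p lay above miR-23b-3p by 3.90 and 4.45 combined errors. In all, 9 pairs were compared in this way, each with the same smallest p of 0.50.

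From isolation 2 to isolation 3 the deposited signal, unscaled, of all 5 members was lower, as it was for 150 of the 164 mouse miRNAs detected in both, although the direction of the members' median turned under 2 of 4 scalings. The members' median log2 change was -0.47 (range -0.83 to -0.21), beside a median of -0.39 with an SD of 0.44 over the 164 miRNAs. Relative to that median, miR-24-3p changed by 0.11, miR-27b-3p by 0.19, miR-23a-3p by -0.08 and miR-27a-3p by -0.16 log2 units, less than the SD across miRNAs. miR-23b-3p changed by -0.44, at place 29 of 164 from the largest fall. In units of the combined error of the signals of the 2 isolations, the difference was 3.30 for miR-23b-3p, 2.74 for miR-27a-3p, 2.45 for miR-23a-3p, 1.71 for miR-24-3p and 0.46 for miR-27b-3p. The members' median change was 0.054 after a shift of each array to its 90th percentile over all mouse miRNAs, where the median of the 164 was 0.14. It was -0.23 after a shift to the median of the miRNAs detected in all isolations. The position relative to the other miRNAs is not altered by such a shift.

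**Figure D3:**
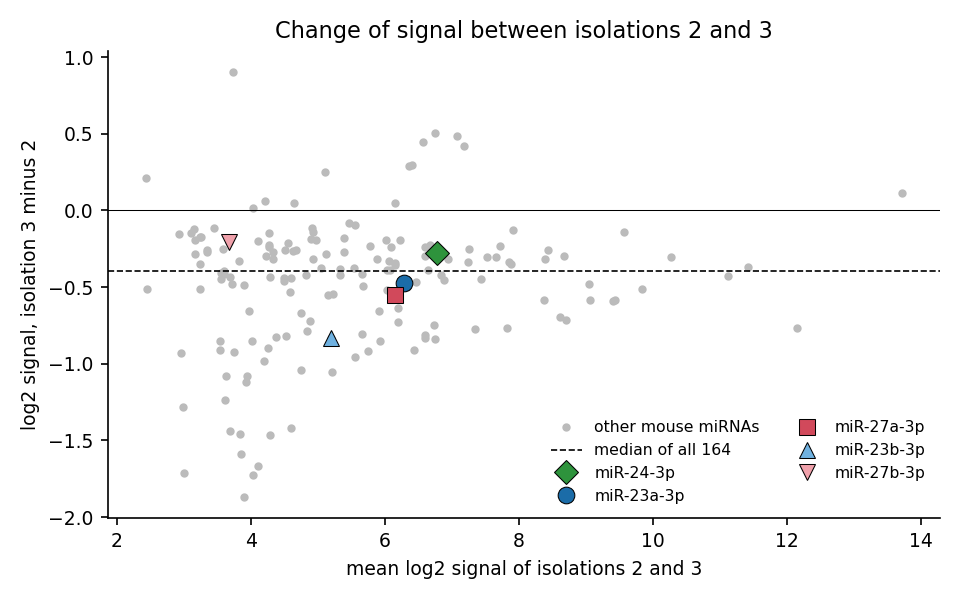
Log2 signal of isolation 3 minus isolation 2 against the mean log2 signal of both for the 164 mouse miRNAs detected in both isolations, with the 5 3p arms marked and the median of -0.39 dashed. The arms lie between -0.21 and -0.83, with miR-23b-3p lowest, on the unscaled signal, and their median turned to 0.054 after the shift to the 90th percentile.

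By the measure set for likeness of pattern, the distance between log2 signals centered on their mean, only isolations 2 and 3 could be used, so the measure compares a single change per miRNA. Of 159 other miRNAs, the closest to miR-24-3p were miR-296-5p, miR-107-3p and miR-152-3p, with log2 changes of -0.28, -0.28 and -0.27. The closest to miR-23a-3p were miR-106b-5p, miR-709 and let-7f-5p (-0.48, -0.48 and -0.46), and to miR-27a-3p miR-130a-3p, miR-1196-5p and miR-1306-3p (-0.55, -0.55 and -0.53). The closest to miR-23b-3p were miR-3968, miR-466f-5p and miR-669l-5p (-0.83, -0.83 and -0.84). The closest to miR-27b-3p were miR-149-5p, miR-16-1-3p and miR-30c-5p (-0.20, -0.21 and -0.19).

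Isolation 1 had fewer detected mouse miRNAs (86) than isolations 2 (179) and 3 (164), and 4 of the 5 members were among the brighter of those it lacked. Of the 94 miRNAs detected in isolation 2 and not in isolation 1, miR-24-3p had the highest signal. miR-23a-3p was at place 6, miR-27a-3p at 8, miR-23b-3p at 15 and miR-27b-3p at 65 of these 94. Of the 80 detected in isolation 3 and not in isolation 1, miR-24-3p again had the highest signal, and the others were at places 6, 9, 19 and 43. All 36 miRNAs brighter than miR-24-3p in isolation 2 were detected in isolation 1, and so were all 34 brighter in isolation 3.

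Of the 142 miRNAs dimmer than miR-24-3p in isolation 2, 49 were detected in isolation 1, and in isolation 3 it was 50 of 129. Of those dimmer than miR-27b-3p, 2 of 31 and 1 of 38 were. In the range of isolation 2 signals from miR-23b-3p to miR-24-3p, 24 of the other 35 miRNAs (68.6%) were detected in isolation 1, as were 36 of the other 51 (70.6%) in the same range of isolation 3. For comparison, 85 of the 179 miRNAs of isolation 2 (47.5%) and 84 of the 164 of isolation 3 (51.2%) were detected in isolation 1. Over the wider range from miR-27b-3p to miR-24-3p it was 47 of 107 (43.9%) and 49 of 87 (56.3%), near the share of all detected miRNAs. The 4 brighter members were thus missed in a range where most other miRNAs were detected. This did not extend to the range that takes in miR-27b-3p. The absence was not particular to the members. In the narrower range of isolation 2, let-7f-5p (103.6), miR-29a-3p (110.4), miR-99a-5p (114.1) and miR-199a-5p (95.8) were among the others missed in isolation 1. Those detected there included miR-669e-5p (119.2) and miR-466h-5p (94.2).

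As bounds against the limit of 7.71, with no scaling, the signal of miR-24-3p in isolation 2 was at least 15.7-fold higher than in isolation 1, that of miR-23a-3p at least 11.9-fold, that of miR-27a-3p at least 11.2-fold, that of miR-23b-3p at least 6.31-fold and that of miR-27b-3p at least 1.77-fold. This limit was chosen after the values were seen, and a member whose feature had a lower error could lie lower still. A member whose feature had a higher error could lie above 7.71 and stay undetected. Such errors occurred in isolation 1, as for miR-652-5p (17.1 ± 3.65, signal ± its error). The folds, and the counts of miRNAs that reach them, are therefore minimums only if 7.71 held for the members. The 84 miRNAs detected in all isolations rose by a median of 1.37 log2 units from isolation 1 to isolation 2 and by at most 4.50. The bound of miR-24-3p, 3.97 log2 units, was reached by 4 of the 84, and those of miR-23a-3p and miR-27a-3p (3.58 and 3.48) by 7 each. The bounds of miR-23b-3p (2.66) and miR-27b-3p (0.83) were reached by 14 and 62. From isolation 1 to isolation 3, where the median rise was 0.87 and the largest 4.15, the bound of miR-24-3p was 3.70, reached by 4 of the 84, and that of miR-27b-3p was 0.62, reached by 59. With the median rise subtracted, the bounds for isolation 2 were 2.60 for miR-24-3p, 2.20 for miR-23a-3p, 2.11 for miR-27a-3p, 1.29 for miR-23b-3p and -0.54 for miR-27b-3p. For miR-27b-3p the missing signal was therefore not resolved from the median rise of the array.

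**Figure D4:**
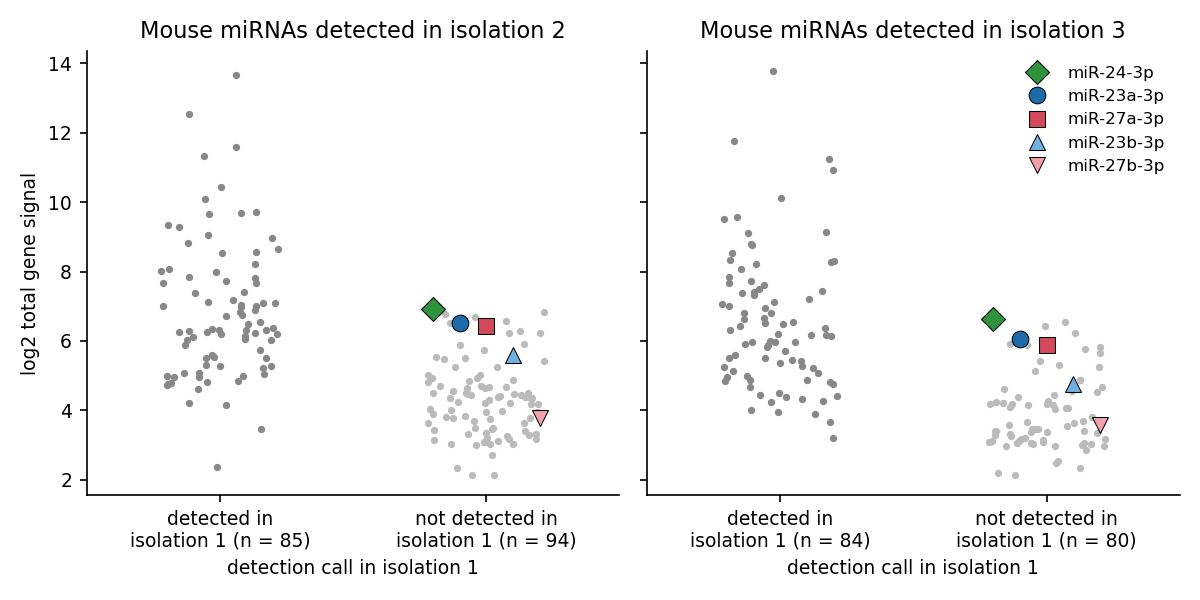
Log2 total gene signal of the mouse miRNAs detected in isolation 2 (left) and isolation 3 (right), split by detection in isolation 1, with the 5 3p arms marked and points spread sideways for legibility. miR-24-3p is the highest point among the 94 and the 80 miRNAs that isolation 1 lacked.

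The miRNAs listed as mesenchymal, where detected, also had lower signals in isolation 1, and how specific each is to such cells was not tested. Of the 5 listed mesenchymal miRNAs on the array, 3, 4 and 4 were detected in isolations 1, 2 and 3, beside 7.97%, 16.6% and 15.2% of all mouse miRNAs. Their summed signal was 37.2, 706.1 and 544.2. miR-214-3p, whose signal in isolation 2 was near that of miR-24-3p, was detected in isolation 1, with 15.3, 137.9 and 100.8 in isolations 1, 2 and 3. miR-199a-3p gave 11.8, 268.0 and 210.0 and miR-21a-5p gave 10.1, 204.5 and 165.7. miR-199a-5p was missed in isolation 1 and gave 95.8 and 67.8 in the others, whereas miR-143-3p was not detected in any. Their part in the absence of the members from isolation 1 was not tested. Of the markers of other cell types, 0 of 2 endothelial miRNAs (the miR-126 arms), 0 of 5 leukocyte miRNAs and 0 of 2 red cell miRNAs were detected in any isolation. Of all mouse miRNAs 16.7% were, a share at which lists this short can hold none, so these counts do not show that such cells were absent. Neither neuron marker, nor miR-122-5p of liver, was detected. Of 3 muscle miRNAs, miR-206-3p alone was, with signals of 7.71, 37.4 and 21.7.

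The other arms and the opposite strand of the clusters gave no detected signal. The features for miR-23a-5p, miR-27a-5p, miR-24-2-5p, miR-23b-5p, miR-27b-5p and miR-24-1-5p lay below detection in each of the 3 isolations, so the arms that could tell Mir24-2 from Mir24-1 carry no level here. The genes of miR-3074 overlap those of miR-24 on the minus strand, and miR-3074-5p holds a run of 20 bases complementary to miR-24-3p. None of its 3 features was detected. The letters CACAGUG, bases 3 to 9 of both miR-27 arms, also stand at bases 2 to 8 of miR-128-3p, so that a miR-128 target site can resemble a miR-27 site. Capitals mark these letters in the following sequence.
miR-128-3p: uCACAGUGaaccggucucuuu
miR-128-3p was not detected in any isolation.

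Apart from miR-23a-3p, which is known as a repressor of Runx2, 10 other miRNAs with that property were listed. Of these, 2 of 10 were detected, both in isolations 2 and 3 only, beside 16.7% of all mouse miRNAs in any isolation. miR-30c-5p had signals of 9.61 ± 2.70 (signal ± its error) in isolation 2 and 8.40 ± 2.57 in isolation 3, at places 163 of 179 and 150 of 164. miR-34c-5p had signals of 9.25 ± 2.69 and 8.49 ± 2.57, at places 164 and 149. Both lay near the end of the order and below the dimmest member, miR-27b-3p, in each isolation, while miR-23a-3p was at places 47 and 51. miR-133a-3p, miR-135a-5p, miR-137-3p, miR-204-5p, miR-205-5p, miR-217-5p, miR-218-5p and miR-338-3p were not detected in any isolation.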

How the data were processed

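The authors labeled total RNA of MVs with Cy3, hybridized it to Agilent mouse miRNA arrays and quantified them with Agilent Feature Extraction (version 10.10.1.1, per the labels). They deposited, for each of 3 isolations, an intensity (total gene signal), its error and a detection call for 1157 features (1079 mouse miRNAs, 57 viral miRNAs and 21 controls), with no scaling between arrays. Every undetected feature carries a signal of 0.1 and an error of 1.

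Log2 signals, places among detected mouse miRNAs and differences between members were computed in each array, over the isolations with detection. Differences were tested by an exact sign-flip permutation over isolations. Combined errors are root sums of squares. Isolations were described without a test, since all arrays form 1 group. With 2 isolations a p-value reflects only whether both differences share a sign, and not their spread. Differences between isolations may be technical. Members, lists and tests were chosen with earlier results of these data known. The miRNAs named are the members, their 5p arms, miR-3074, miRNAs sharing a seed, miR-128-3p, a Runx2 list, cell type markers, the next miRNAs in the order and the 3 most alike in pattern. In the order, only some neighbors are named, chosen after their values were seen. Alternatives were other detection rules, scalings, treatments of undetected values, sets ranked and each isolation left out. Functions were tested on simulated data. Sequences and gene positions are from RefSeq (GRCm38.p6), with 867 of 1079 miRNAs matched, and the array tables name no assembly. Python 3.11.15, numpy 2.4.6, pandas 2.3.3 and matplotlib 3.10.9 were used.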

Additional observations from a re-analysis of the deposited data

How the results depend on the processing

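The number of 3p arms detected in all isolations, 0, was 5 when detection in at least 2 isolations was required, and lay between 0 and 5 on omission of single isolations (5 without isolation 1). For miRNAs detected in any isolation, the 6 alternatives could only remove detections. The number of 5p arms (0) therefore could not change. That of Runx2-targeting miRNAs (2) could only have fallen, and did not. The members' median change from isolation 2 to isolation 3, -0.47, turned to 0.054 when each array was shifted to its 90th percentile of mouse miRNAs and to 0.068 when the percentile was taken over miRNAs detected in all isolations, and was -0.14 with quantile normalization and -0.23 after a shift to the median of those miRNAs. The bounds for isolation 1 moved, for miR-24-3p in isolation 2 from 3.97 to 4.64, when its lowest detected signal of any mouse miRNA was the limit, an alternative chosen after seeing the data. The median of the members' mean log2 signals, 6.15, was 1.70 and -3.14 after these percentile shifts, -0.16 after a shift to the median of miRNAs detected in all isolations and 5.56 with quantile normalization. With undetected values set to the lowest detected signal it was 4.86, and with the deposited value kept it was 2.99. A shift moves the zero of the scale, and quantile normalization mixes in the placeholder signals of isolation 1. The order of the 5 members by signal, and the sign of both differences between paralogs, were the same in isolation 2 and in isolation 3. The alternatives keep the order within an array or leave out an isolation. They therefore could not change this order or these signs, and their agreement adds no further check. The median percent of miRNAs below a member, 68.1%, was 95.0% over all mouse miRNAs and 44.6% over those detected in all isolations, and 63.8% to 72.5% on omission of single isolations. Signals under the detection limit of an array are bounds only. No paired comparison between groups of samples was possible because there is only 1 group.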
